A study of Sus scrofa with 12 samples.

Results

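The inhibin, activin, follistatin and AMH system of the pig ovary was measured here as 10 genes. With earlier results of these data known, these genes were chosen by their symbols from a table of 29884 genes. They were the inhibin subunit genes INHA, INHBA and INHBB, the genes FST and FSTL3 of activin-binding proteins, AMH and its receptor gene AMHR2, and the activin receptor genes ACVR1B, ACVR2A and ACVR2B. All 10 were found in the table, and all 10 passed the filter on low values, at least 1 FPKM in at least 3 libraries. FPKM corrects read numbers for library size and for transcript length, so levels of different genes can be set side by side.

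Left ovaries of 3 sows with a small litter size (SLS, ovaries ZD2, ZD3 and ZD12, a mean of 8.48 ± 0.53 piglets per litter, the error being an SEM by the general statement of the methods) were compared with those of 3 sows with a large litter size (LLS, ovaries ZD5, ZD7 and ZD8, 16.19 ± 0.43 piglets). The sows came from a commercial piggery, their ovaries were taken 4 days after delivery 4, and the labels name neither age nor breed. Total RNA of ovary tissue, depleted of ribosomal RNA, gave 1 library per sow, so that the 3 ovaries of a group are 3 animals. Cell types were not separated, and which portion of an ovary was taken is not given in the sources used here, so fewer cells of a type and less RNA per cell cannot be told apart.

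Inhibins and activins are dimers built from shared subunits. The alpha subunit, from INHA, pairs with a beta subunit to give inhibin, which the ovary secretes to restrain FSH release from the pituitary, while beta subunits from INHBA and INHBB pair with each other to give activin, which raises it. Activin binds a type II receptor (ACVR2A or ACVR2B), which then activates the type I receptor ACVR1B, and FST and FSTL3 capture activin before it can bind. AMH, made by granulosa cells of small growing follicles, acts through its own type II receptor, AMHR2, and restrains the recruitment of further follicles.

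The libraries held between 32272803 reads (ZD8) and 60903268 reads (ZD2). Defining genes of luteal cells were present, with STAR, the carrier of cholesterol into mitochondria, at 2540 to 5420 FPKM in 5 ovaries. Of the oocyte genes, GDF9 was at 5.41 to 40.6 FPKM in the 6 ovaries. Outside ZD8 the other oocyte genes were lower. There ZP2, FIGLA and NLRP5 were at most 0.559 FPKM, and ZP3, ZP4 and BMP15 reached 5.38, 2.68 and 2.54 FPKM in ZD12. CYP19A1, the aromatase of the granulosa cells of large follicles, was listed at 0 in 5 ovaries and at 0.0137 FPKM in ZD5. The LLS ovary ZD8 stood apart, with STAR at 26.4 FPKM, CYP11A1, which makes pregnenolone from cholesterol, at 21.0 FPKM against 1470 to 1860 FPKM, and all 7 oocyte genes of the list used here above the other 5 ovaries. The mean log2(FPKM + 1) over 7 luteal genes was 3.88 in ZD8 and 7.91 to 8.27 in the others. The differences of the 10 genes between the groups are therefore given with and without ZD8. Whether ZD8 was mislabelled or sampled differently was not tested.

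INHA was the most abundant of the 10 genes, and with all 6 ovaries it was the one with the smallest p by limma. Without ZD8, and with array weights, AMHR2 had the smaller p, and without ZD12 INHBB and AMH had. Its level was 553 FPKM in ZD2, 376 FPKM in ZD3 and 726 FPKM in ZD12 of the SLS group, and 285 FPKM in ZD5, 162 FPKM in ZD7 and 66.4 FPKM in ZD8 of the LLS group. No LLS value reached the lowest SLS value. The means were 552 ± 175 FPKM in SLS and 171 ± 110 FPKM in LLS (SD, n = 3 ovaries each), a ratio of 3.22 between SLS and LLS. On the log2(FPKM + 1) scale INHA differed by -1.86 (standard error 0.58, LLS relative to SLS). Limma gave it an unadjusted p of 0.0121 and an adjusted p of 0.999 over the 12260 genes tested. The exact two-sided permutation test gave p = 0.1, the smallest that 3 ovaries against 3 can give. By unadjusted p, INHA stood at rank 59 of the genes tested. Without ZD8 the difference was -1.30 (standard error 0.38, adjusted p = 0.346 by limma), and INHA lay lower in LLS in all 17 alternatives (-2.35 to -1.30, adjusted p from 0.138 to 1.0 by limma, edgeR or DESeq2).

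**Figure D1:**
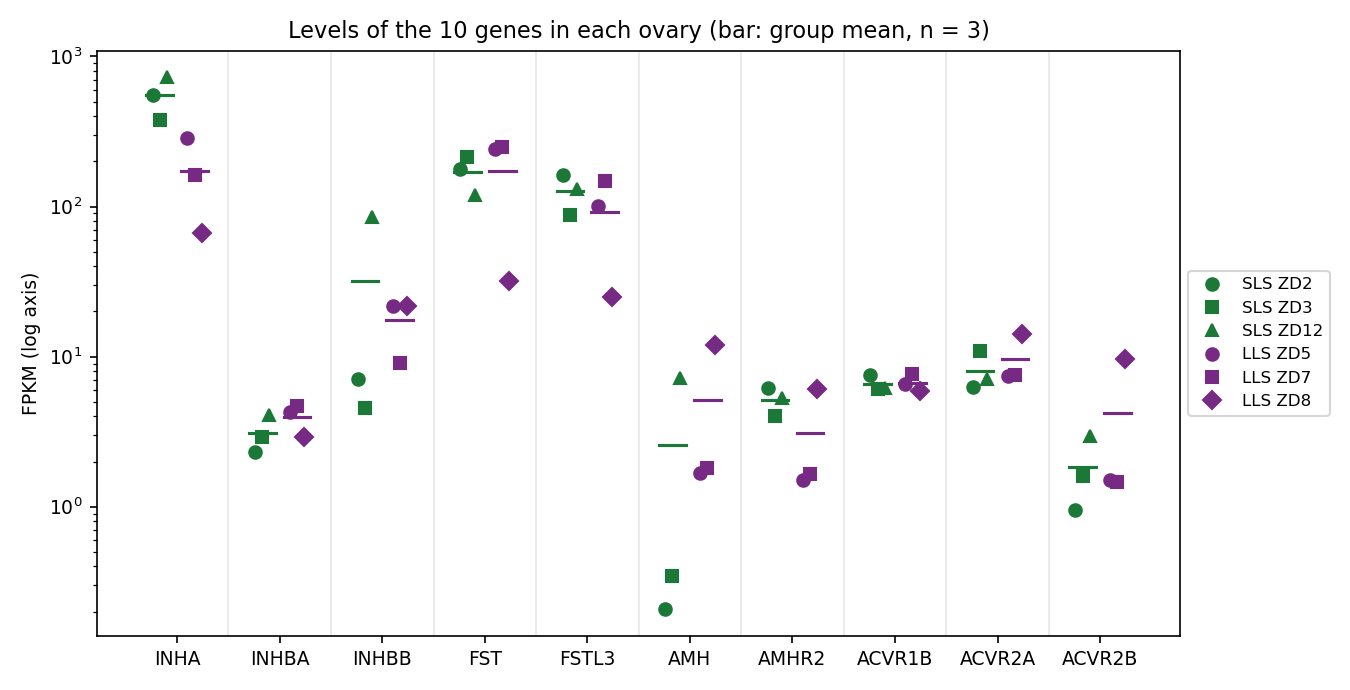
FPKM (log axis) of the 10 genes in each of the 3 SLS and 3 LLS ovaries, with bars at the group means. For INHA the LLS ovaries lie between 66.4 and 285 FPKM, below the SLS ovaries at 376 to 726 FPKM, while the groups overlap for the other 9 genes.

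With all 6 ovaries, limma called none of the 10 genes at an adjusted p under 0.05 with an absolute log2 fold change over 1. It called none of all genes tested either (0%), against 13 with array weights and 20 by DESeq2, none of them among the 10. By limma 1 of the 10, INHA, had an unadjusted p under 0.05. Of all genes tested, 1.21% had such a p with the lower level in LLS. The groups did not overlap, with LLS lower, for 1 of the 10 genes and for 3.17% of all genes tested, and they did not overlap in either direction for 5.12% of all. The median log2 difference was 0.08 over the 10 genes and 0.02 over all genes tested.

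The promoter sequence of AMH is shown because AMH was the gene with the widest range between ovaries. It holds the 250 bases before and the first 50 bases of the gene on the RefSeq annotation of Sscrofa11.1, read on the plus strand, at chr2:76415314-76415613. Capitals mark the core AAGGNCA of steroidogenic factor 1 (NR5A1), searched on both strands.
AMH: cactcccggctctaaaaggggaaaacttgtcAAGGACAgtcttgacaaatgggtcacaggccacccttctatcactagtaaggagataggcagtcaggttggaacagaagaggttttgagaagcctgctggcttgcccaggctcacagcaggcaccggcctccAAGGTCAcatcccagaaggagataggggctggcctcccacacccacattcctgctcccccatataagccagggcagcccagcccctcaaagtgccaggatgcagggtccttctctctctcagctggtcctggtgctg
In AMH, AAGGACA lies at -219 to -213 and AAGGTCA at -87 to -81 from the annotated start, and the matches do not overlap. AAGGNCA is found in 19.2% of 19556 promoters of this length and in 3 of the 10 genes. A match of letters is a description and not evidence of binding.

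INHA spans 121581847 to 121586020 on the plus strand of chromosome 15 with 2 exons, and INHBB 30999994 to 31004405 on the minus strand of the same chromosome. INHBA is in the annotation at 2 loci, 52889684 to 52909260 on chromosome 18 and 53115379 to 53117128 on chromosome 12. Its deposited values are whole reads only when divided by the 3889 nt of both loci together. The level of INHBA against other genes is thus less certain than its comparison between ovaries.

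INHBA, the beta A subunit, was low and even. It was at 2.33, 2.90 and 4.11 FPKM in the SLS group (ZD2, ZD3, ZD12 in turn), and at 4.26, 4.66 and 2.91 FPKM in the LLS group (ZD5, ZD7, ZD8). The 2 highest values were those of ZD7 and ZD5, and ZD8 lay among the SLS ovaries. On the log2 scale LLS lay 0.27 higher (standard error 0.30; exact permutation p = 0.2, limma adjusted p = 0.999). Without ZD8 both remaining LLS ovaries lay above the 3 SLS ovaries, with a difference of 0.43 (standard error 0.27, adjusted p = 1.0 by limma), while it was 0.13 without ZD2 and 0.16 without ZD7.

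INHBB, the beta B subunit, differed more among ovaries of 1 group than between the groups. Its level was 7.12 FPKM in ZD2, 4.57 FPKM in ZD3 and 84.6 FPKM in ZD12, and 21.7, 9.07 and 21.6 FPKM in ZD5, ZD7 and ZD8. The SLS ovaries held both the highest and the lowest of the 6 values, 18.5 times apart. The mean was 32.1 ± 45.5 FPKM in SLS and 17.4 ± 7.25 FPKM in LLS (SD, n = 3), and the log2 difference of 0.14 (standard error 0.93, adjusted p = 0.999 by limma) changed its sign with the processing. Without ZD12 it was 1.36, with an unadjusted p of 0.02 and an adjusted p of 1.0 by limma, and without ZD8 it was -0.06.

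FST, which binds activin almost irreversibly, was the second most abundant gene. It stood at 179, 214 and 119 FPKM in the SLS group (ZD2, ZD3, ZD12 in turn), and at 240, 249 and 32.0 FPKM in the LLS group (ZD5, ZD7, ZD8). The LLS group therefore held the 2 highest values and the lowest. The means were 171 ± 47.9 FPKM in SLS and 174 ± 123 FPKM in LLS (SD, n = 3), and the log2 difference was -0.41 (standard error 0.75, adjusted p = 0.999 by limma). Without ZD8 it turned to 0.55 (standard error 0.31, adjusted p = 1.0 by limma), with ZD5 and ZD7 above all 3 SLS ovaries.

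FSTL3, a follistatin-like activin binder, held 163, 88.1 and 130 FPKM in ZD2, ZD3 and ZD12 against 101, 148 and 25.1 FPKM in ZD5, ZD7 and ZD8. Leaving aside ZD8, which was 3.50 times below the next lowest ovary, the groups overlapped. The log2 difference was -0.75 (standard error 0.62, adjusted p = 0.999 by limma) and -0.0083 without ZD8. The span of FSTL3 overlaps PRSS57 on the other strand, a gene listed at 0 in 5 of the 6 ovaries and at 0.00769 FPKM in ZD7.

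AMH had the widest range of the 10 genes, 57.9 times between the lowest and the highest ovary. The median range over all genes with every value above 0 was 2.39 times. AMH was at 0.208 FPKM in ZD2, 0.346 FPKM in ZD3 and 7.21 FPKM in ZD12, and at 1.69, 1.82 and 12 FPKM in ZD5, ZD7 and ZD8. ZD8 and ZD12 were high and belong to different groups, so that the groups overlapped. The lowest value rested on 24 reads (95% exact Poisson interval 15.4 to 35.7, for counting error only) and the highest on 736 reads. On the log2 scale LLS lay 0.96 higher (standard error 0.85; exact permutation p = 0.5, limma adjusted p = 0.999), 0.22 higher without ZD8, 1.86 higher without ZD12 (unadjusted p = 0.028, adjusted p = 1.0 by limma), 1.79 and 2.02 higher with pseudocounts of 0.1 and 0.01 FPKM, but -0.17 with array weights, which give less weight to ovaries that vary more.

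AMHR2 was at 6.16, 4.01 and 5.32 FPKM in ZD2, ZD3 and ZD12, and at 1.51, 1.66 and 6.09 FPKM in ZD5, ZD7 and ZD8. It encodes the receptor that AMH binds. The LLS ovaries ZD5 and ZD7 were below all SLS ovaries, while ZD8 lay inside the SLS range. The means were 5.16 ± 1.08 FPKM in SLS and 3.09 ± 2.60 FPKM in LLS (SD, n = 3), with a log2 difference of -0.75 (standard error 0.43; exact permutation p = 0.3, limma adjusted p = 0.999). Without ZD8 the SLS mean was 3.26 times that of the 2 other LLS ovaries, and the difference was -1.24 (standard error 0.26, unadjusted p = 0.000833, adjusted p = 0.143 by limma). It was -0.49 without ZD5 and -0.53 without ZD7. The direction was the same in all 17 alternatives, with an adjusted p of 0.0772 by limma with array weights as the lowest.

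With ZD8 left out, limma gave an unadjusted p under 0.05 to 2 of the 10 genes, INHA and AMHR2, both lower in LLS. Of the 11985 genes then tested, 709 had such a p, and 2.71% had it with the lower level in LLS. The groups did not overlap for these 2 genes with LLS lower, against 11.5% of all genes, and for INHBA and FST with LLS higher, against 7.53%. None of the 4 was called, while 20 of the 11985 genes tested were.

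**Figure D2:**
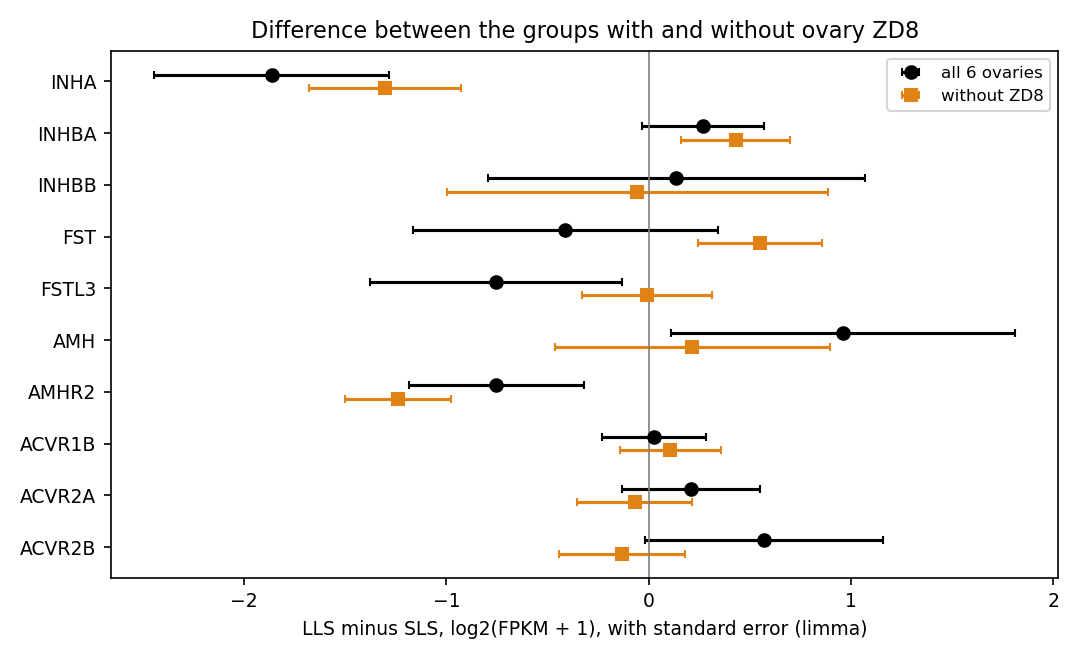
Difference of LLS from SLS on the log2(FPKM + 1) scale by limma, with its standard error, for each of the 10 genes with all 6 ovaries (black circles) and without ZD8 (orange squares). Without ZD8 the value of INHA goes from -1.86 to -1.30, that of AMHR2 from -0.75 to -1.24 and that of FST from -0.41 to 0.55.

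The receptors of activin were at low levels. ACVR1B, the type I receptor, was the steadiest of the 10 genes, with 7.50, 6.09 and 6.14 FPKM in ZD2, ZD3 and ZD12 and 6.58, 7.71 and 5.87 FPKM in ZD5, ZD7 and ZD8. The highest ovary was 1.31 times the lowest, and the log2 difference between the groups was 0.03 (standard error 0.26, adjusted p = 0.999 by limma), 0.11 without ZD8 and -0.0244 with quantile normalization. ACVR2A, a type II receptor, held 6.23, 10.9 and 7.09 FPKM in SLS and 7.39, 7.50 and 14.1 FPKM in LLS, in the same order of ovaries. Its difference was 0.21 (standard error 0.34, adjusted p = 0.999 by limma) and -0.07 without ZD8. ACVR2B, the other type II receptor, was at 0.953, 1.60 and 2.98 FPKM in ZD2, ZD3 and ZD12 and at 1.5, 1.47 and 9.70 FPKM in ZD5, ZD7 and ZD8. ZD8 was 3.25 times above the next highest ovary, and the difference of 0.57 (standard error 0.59, adjusted p = 0.999 by limma) became -0.13 without it and -0.18 with array weights. On recovered reads it was 1.11 by edgeR and 1.09 by DESeq2.

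Ordered by their mean over the 6 ovaries, the levels ran from INHA (362 FPKM) over FST (172 FPKM), FSTL3 (109 FPKM), INHBB (24.8 FPKM), ACVR2A (8.86 FPKM), ACVR1B (6.65 FPKM), AMHR2 (4.12 FPKM), AMH (3.88 FPKM) and INHBA (3.53 FPKM) to ACVR2B (3.03 FPKM). The ranges of every pair of neighbours in this order overlapped. Over its longest annotated transcript INHBA would be 1.82 times higher, so its place in this order is less certain. FSTL3, the follistatin-like gene, was above INHBB in all 6 ovaries, and INHA was above FST in 5 of them, with ZD7 as the exception. INHA ranked 121 and FST 271 by mean among the genes tested.

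Across ovaries some of the 10 genes were low in ZD8 and others high. ZD8 was below the other 5 ovaries for INHA, FST, FSTL3 and ACVR1B, 4 of the 10, where 26.3% of all genes tested were. It was above the other 5 for AMH, ACVR2A and ACVR2B, 3 of the 10, where 44.6% of all genes were. For ACVR1B the gap to the next ovary was 1.04 times, and for FST it was 3.73 times.

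Some of the lists of cell type markers moved with these differences, and their part in the results was not tested. In ZD8, 6 of the 7 luteal genes and all 4 endothelial genes were below the other ovaries, whereas the theca list, with 4 of its 5 genes above and KCNK3 (0.49 FPKM) below the other ovaries, was at 4.78 (2.97 to 4.55 in the others) and the oocyte list at 3.17 (0.48 to 1.54) in mean log2(FPKM + 1). The granulosa list was highest in ZD12 (5.42) and lowest in ZD8 (4.17), where 3 of its 7 genes were below and 2, FSHR and FOXL2, above the other ovaries. FSHR, the receptor of FSH on granulosa cells, was at 10.8 FPKM in ZD8 and 4.50 FPKM in ZD12, the 2 ovaries with most AMH, and between 0.202 and 2.68 FPKM in the rest. The stroma list ran from 7.74 to 8.35, the epithelial list from 0.98 to 2.58 and the leukocyte list from 1.63 to 2.82, with all 4 leukocyte genes highest in ZD8. Of the stroma genes, DCN (1850 FPKM) and PDGFRA (220 FPKM) were above the other ovaries in ZD8. COL1A1 (377 FPKM) and COL3A1 (451 FPKM) were below them. Genes of the epithelial list went opposite ways, with EPCAM at 0.312, 0.339 and 1.28 FPKM in SLS and 27.8, 9.73 and 2.31 FPKM in LLS, without overlap (log2 difference 2.66, adjusted p = 0.999 by limma), and KRT8 at -1.16. HSD17B1, the granulosa enzyme that makes estradiol from estrone, was at 109 FPKM in ZD12, where INHBB was highest, and at 4.18 FPKM in ZD3, where INHBB was lowest. NR5A2, a nuclear receptor of granulosa and luteal cells, was at 1.69 FPKM in ZD8 and 168 to 262 FPKM in the others. The 4 genes of cycling cells were lower in ZD8 than in any other ovary, and their list ran from 3.32 to 3.80 in SLS and from 2.63 to 3.18 in LLS, with no overlap, as for INHA. The smooth muscle list was at 4.29 and 4.90 in ZD5 and ZD7, the ovaries with the least AMHR2, and at 5.17 to 6.42 in the other 4.

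**Figure D3:**
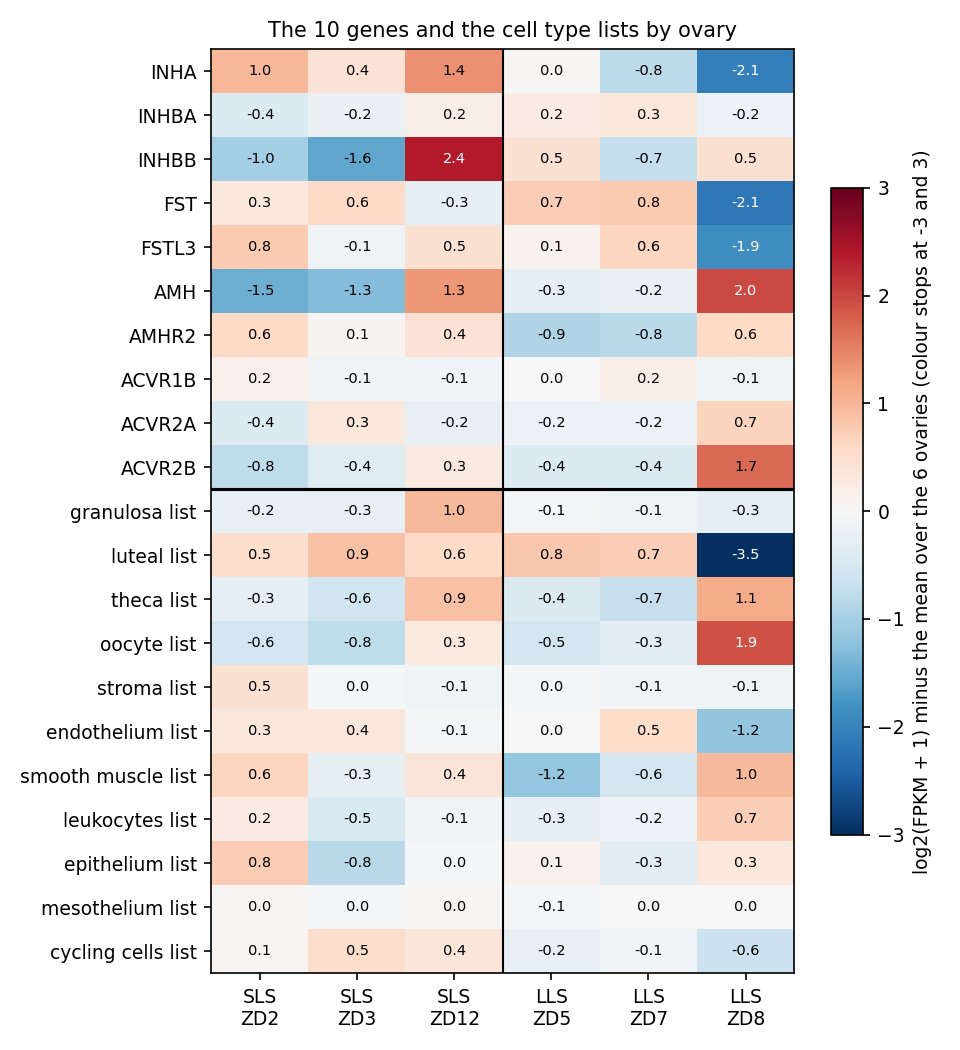
Log2(FPKM + 1) of the 10 genes (top) and of the cell type lists (below the line, mean over the genes of a list) in each ovary, as the difference from the mean over the 6 ovaries. In ZD8, INHA (-2.05), FST (-2.13) and FSTL3 (-1.87) are low beside the luteal list (-3.51), while AMH (1.97) and ACVR2B (1.69) are high beside the oocyte list (1.92).

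Ratios between genes of the same library do not depend on its scaling beyond the small value added, and 5 were compared between the groups, as log2 ratios with 0.1 FPKM added to each side. INHA exceeded the sum of INHBA and INHBB by 58.6, 50.3 and 8.18 times in ZD2, ZD3 and ZD12, and by 11.0, 11.8 and 2.71 times in ZD5, ZD7 and ZD8. ZD12, the SLS ovary with most INHBB, had a smaller excess than ZD5 and ZD7, so the groups overlapped. The log2 ratio was 4.84 ± 1.57 in SLS and 2.81 ± 1.20 in LLS (SD, n = 3; exact two-sided permutation p = 0.3, 0.625 with Benjamini-Hochberg adjustment over the 5 ratios), and the difference of -2.03 was -1.34 without ZD8 and -2.93 without ZD12. FST exceeded the 2 beta subunits by 19.0, 28.6 and 1.35 times in ZD2, ZD3 and ZD12, and by 9.25, 18.1 and 1.30 times in ZD5, ZD7 and ZD8. In ZD12 and ZD8 the level of FST was thus near that of the 2 beta subunits, which inhibin also uses. FSTL3, the other activin binder, is not in this ratio and was at 130 FPKM in ZD12 and 25.1 FPKM in ZD8. The log2 difference of LLS from SLS was -0.57 for this ratio (exact permutation p = 0.5, adjusted 0.625) and 0.53 without ZD8.

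On the deposited scale INHBB exceeded INHBA in each of the 6 ovaries, by 1.57 to 20.6 times in SLS and by 1.94 to 7.43 times in LLS. Divided by its longest annotated transcript (2139 nt), INHBA would be 1.82 times higher, and INHBB would exceed it in 5 ovaries and be 0.866 times its level in ZD3. The ratio of AMH to INHA spanned log2 values of -10.8 to -6.64 in SLS and of -7.31 to -2.46 in LLS. Its difference of 3.66 had the smallest p of the 5 ratios (exact permutation p = 0.2, adjusted 0.625), and it was 2.20 without ZD8, 4.87 without ZD12, 4.62 without ZD5 and 2.83 with 1 FPKM added. In FPKM, ACVR2A exceeded ACVR2B by 2.38 to 6.82 times in SLS and by 1.45 to 5.12 times in LLS. The smallest excess was in ZD8 and the next in ZD12. This excess rests on the annotated lengths, 1592 nt for ACVR2A and 11989 nt for ACVR2B. In reads, ACVR2B was above ACVR2A in every ovary, from 696 against 604 in ZD2 to 3752 against 723 in ZD8.

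**Figure D4:**
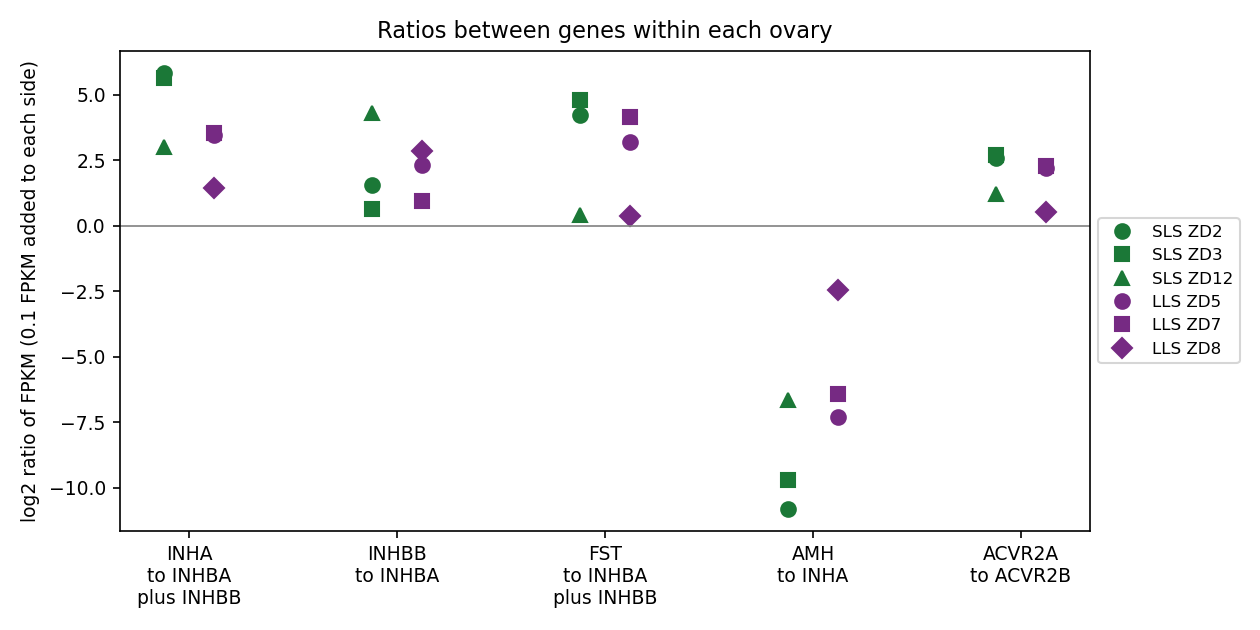
Log2 ratio of FPKM between genes of the system in each ovary, with 0.1 FPKM added to each side and markers as SLS (green) and LLS (purple) ovaries. The groups overlap in all 5 ratios, and ZD12 and ZD8 have the lowest values for FST to INHBA plus INHBB, at 0.43 and 0.38.

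The other genes of the pathway were read from 6 fixed lists. Of 12 ligands, co-receptors and binding proteins, 5 were tested and none was called. TGFBR3 (betaglycan), the co-receptor through which inhibin binds type II receptors, was at 11.4 to 26.0 FPKM in SLS and at 16.3, 15.9 and 59.3 FPKM in ZD5, ZD7 and ZD8. BAMBI, a decoy receptor, and FSTL1, a secreted protein related to follistatin, overlapped between the groups, with 41.6 and 153 FPKM in ZD8. INHBC and INHBE, the beta C and beta E subunits, were listed at 0 in the 6 ovaries. WFIKKN2, an inhibitor of GDF11 and myostatin that was too low elsewhere to be tested, was at 63.2 FPKM in ZD8 and at most 2.93 FPKM in the other 5. The median log2 difference of the list was 0.10, and -0.19 without ZD8.

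Of 6 further receptors of activin and AMH signals, 5 were tested and none was called, with log2 differences from -0.69 (BMPR1B) to 0.36 (ACVRL1) and a median of 0.12, or -0.18 without ZD8. BMPR2, a type II receptor of bone morphogenetic proteins, was the most abundant, at 43.0 ± 11.3 FPKM in SLS and 42.8 ± 3.42 FPKM in LLS (SD, n = 3). All 8 SMAD genes of the list, SMAD6 and SMAD7 included, were tested and none was called. Their log2 differences ran from -0.21 (SMAD9) to 0.24 (SMAD4), and 6 of the 8 were highest in ZD8. Without ZD8 the median of the list went from 0.07 to -0.21, SMAD9 was -0.78 (unadjusted p = 0.00998, adjusted p = 0.449 by limma) and SMAD4 was -0.16. The groups of SMAD2 and SMAD3, which activin signals through, overlapped at 10.6 to 28.4 FPKM and 15.2 to 22.0 FPKM.

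Of the 4 proprotein convertases, the enzymes that cleave precursors of this family, PCSK6 was the one whose groups did not overlap (3.17% of all genes tested did not, with LLS lower). It was at 6.49, 5.53 and 5.50 FPKM in ZD2, ZD3 and ZD12 and at 2.56, 3.81 and 4.19 FPKM in ZD5, ZD7 and ZD8. Its log2 difference was -0.61 (standard error 0.28, adjusted p = 0.999 by limma), and -0.72 without ZD8 (adjusted p = 0.596 by limma). The median of the list was -0.25, and -0.24 without ZD8. FURIN was the most abundant of the 4, at 29.9 ± 6.04 FPKM in SLS and 36.2 ± 15.8 FPKM in LLS (SD, n = 3). Its log2 difference was 0.17, and 0.60 without ZD8 (unadjusted p = 0.0404, adjusted p = 0.787 by limma). ZD5 and ZD7 (46.5 and 43.9 FPKM) lay above all SLS ovaries, as they did for 7.53% of all genes tested without ZD8.

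Of 9 transcription factors known at the INHA and AMH genes or in the cells that use them, 8 were tested and none was called, with a median difference of 0.11, or -0.10 without ZD8. NR5A1 was at 13.1 to 30.1 FPKM in SLS and 16.0 to 30.6 FPKM in LLS, and GATA4 was at 15.3 to 28.1 FPKM and 15.0 to 46.7 FPKM. FOXL2 and WT1, factors of granulosa cells, were highest in ZD8, at 37.8 and 88.6 FPKM, and next in ZD12, at 30.6 and 26.6 FPKM, which is the order of AMH in these 2 ovaries. FOXL2 in ZD5 and ZD7 (6.11 and 6.69 FPKM) was below all SLS ovaries, as were AMHR2 and, without ZD8, 11.5% of all genes tested. The log2 difference of FOXL2 went from -0.29 to -1.08 without ZD8 (adjusted p = 0.789 by limma). Of 10 genes of gonadotropin response and steroid synthesis, 9 were tested and none was called. The median difference of this list was 0.23, and -0.25 without ZD8. LHCGR, the LH receptor, was the one without overlap (again beside 3.17% of all genes), at 27.8, 70.5 and 46.1 FPKM in ZD2, ZD3 and ZD12 and at 22.5, 24.2 and 10.4 FPKM in ZD5, ZD7 and ZD8. Its log2 difference was -1.28 (standard error 0.43, adjusted p = 0.999 by limma), and -0.92 without ZD8.

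Likeness to each of the 10 genes was measured as the mean absolute difference, over the 6 ovaries, between log2(FPKM + 1) values centred on the mean of each gene, among all genes tested. It is a description of 6 ovaries that share ZD8 and says nothing of shared control. For INHA the nearest genes were CHAC1 (0.16), LRP8 (0.27) and GDPD5 (0.30), where the median over all genes was 1.01. CHAC1, which breaks down glutathione, was at 15.8 to 37.7 FPKM in SLS and at 2.60 to 10.7 FPKM in LLS. Its groups did not overlap, but it was picked for its likeness to INHA, so this is no separate result. The groups of LRP8 did not overlap either, and those of GDPD5 did (21.1 FPKM in ZD3 and 22.5 FPKM in ZD7). The nearest to FST were TP53BP2 (0.09), CA4 (0.11) and COL15A1 (0.12), and those to FSTL3 included AGPAT2 (0.08) and TMEM88 (0.10). INHBB was nearest to CHST8 (0.25), HSD17B1 (0.39) and NPR3 (0.46). CHST8, a sulfotransferase, was at 17.0 FPKM in ZD12 and 1.24 to 8.27 FPKM elsewhere.

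AMH was nearest to ACSBG1 (0.20) and to 2 genes without a name, LOC110260131 (0.23) and LOC100624650 (0.24). AMHR2 was nearest to F13A1 (0.12), GPRC5A (0.14) and CRYAB (0.14). F13A1, a subunit of coagulation factor XIII, was at 2.77 to 5.52 FPKM in SLS and at 1.0, 1.23 and 3.98 FPKM in ZD5, ZD7 and ZD8. The nearest gene was NUAK1 for ACVR1B (0.03), NEDD4 for ACVR2A (0.05), RHPN2 for ACVR2B (0.06) and NEDD4L for INHBA (0.07). Among the 10 genes themselves the closest pairs were INHBA with ACVR1B (0.23) and ACVR1B with ACVR2A (0.41), followed by INHBA with ACVR2A (0.46) and FST with FSTL3 (0.48).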

How the data were processed

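Ovary tissue of 3 SLS and 3 LLS sows was sequenced after removal of ribosomal RNA. Reads were mapped by the authors to Sscrofa11.1 with HISAT2, and FPKM per gene were deposited. The program that counted reads is not given in the sources used here. For the small RNA libraries of the same ovaries, which served only for their depth (3537619 to 9854086 reads), the deposited values are RPM (reads scaled to the library total), named TPM by the authors. The 10 genes were taken by their exact symbols, and the members, lists, ratios and motifs were chosen with earlier results of these data known.

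LLS and SLS were compared by limma 3.58.1 in R 4.3.3 with a trended variance on log2(FPKM + 1), for 12260 genes with at least 1 FPKM in at least 3 libraries. Genes past both an adjusted p of 0.05 (Benjamini-Hochberg) and a log2 fold change of 1 in size were called. Fold changes on this scale understate the change of low genes. Single genes and ratios were also compared by exact permutation tests (scipy 1.17.1). Each FPKM value was a whole number of reads (within 0.001) over the longest annotated transcript for 23477 of 23564 genes above 0, and over its summed parts for INHBA, a length chosen after seeing the data (99.6% in all). These reads were used for edgeR 4.0.16 and DESeq2 1.42.0 as alternatives and gave the read totals. DESeq2 is the tool named in the study. The fit was tested on simulated data, and the outcome is not reported here. Alternatives covered the pseudocount, the filter, scaling, variance trend, array weights, count tests, leaving out each ovary and, added after seeing the data, the length of INHBA in the ratios. Named genes were the 10 members, pathway genes without overlap between the groups or among the 4 highest means of their list, and the 3 nearest genes by likeness. INHBC, INHBE, SMAD9, NR5A1, FOXL2 and the genes named beside the cell type lists (FSHR, HSD17B1, CYP19A1, GDF9, KCNK3, EPCAM, KRT8) were chosen after their values were seen. So were the other oocyte genes (ZP2, ZP3, ZP4, BMP15, FIGLA, NLRP5) and the stroma genes (DCN, PDGFRA, COL1A1, COL3A1) named. Some of the nearest genes and promoter sequences are not reported here. Motif letters were searched in promoters of protein-coding genes on both strands.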

Additional observations from a re-analysis of the deposited data

How the results depend on the processing

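No paired analysis was possible because the labels give each sow her own number and none links an SLS to an LLS sow. No gene was called by limma (216 had an unadjusted p under 0.05). The count of calls (0) was 13 with array weights, 20 by DESeq2 or from 0 to 20 with each ovary left out, where only the fit without ZD8 called any. It was 0 in the other alternatives, edgeR (220 genes at an unadjusted p under 0.05) included, with 91 to 416 genes at such a p. The count of the 10 genes called was 0 in all 17 alternatives and without the fold threshold, with 1 to 3 at an unadjusted p under 0.05. Array weights moved the median log2 difference of all genes from 0.02 to -0.12, and leaving out ZD8 moved it to -0.10.

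INHA, AMHR2, INHBA and FSTL3 kept their sign in all 17 alternatives, but for FSTL3 (-0.75) the values ran from -1.26 without ZD7 to -0.0083 without ZD8, with -0.175 under array weights, -0.39 by edgeR and -0.40 by DESeq2. For INHBB the difference was -0.72 (array weights), -0.78 (edgeR) and -0.78 (DESeq2), and -0.61 to 1.36 over the 6 ovaries left out (-0.34 without ZD2, -0.61 without ZD3, -0.06 without ZD5 and -0.06 without ZD8). FST had 0.61 (array weights), 0.0968 (edgeR) and 0.0866 (DESeq2), turning to 0.55 without ZD8 (-0.91 to 0.55 over the 6 ovaries left out). AMH turned to -0.17 and ACVR2B to -0.18 with array weights, and without ZD8 ACVR2B was -0.13 (up to 0.93) and ACVR2A -0.0687 (up to 0.42). AMH was 1.79 and 2.02 with pseudocounts of 0.1 and 0.01 FPKM, and ACVR2B 1.11 by edgeR and 1.09 by DESeq2. DESeq2 gave no p for AMH. ACVR1B turned to -0.0244 with quantile normalization and lay between -0.0644 and 0.11 when 1 ovary was omitted (-0.0192 without ZD3, -0.0146 without ZD12). With each ovary left out, the log2 ratio of INHBB to INHBA (-0.14) ran from -0.91 to 0.93 (0.41 without ZD7), that of FST to INHBA plus INHBB (-0.57) from -1.94 to 0.53 (0.26 without ZD3) and that of ACVR2A to ACVR2B (-0.49) from -0.96 to 0.0853 without ZD8. The cause of these changes was not tested.

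Low values limit AMH most, with 24 and 34 reads in ZD2 and ZD3, while every other member had at least 248 reads in each library.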
